A study of Mus musculus with 3 samples.

Results

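The cells described here were 274 thymocytes of 12208 in the data set. They carried the hashtag of the CD73+ Treg sort, and the authors' clustering had placed them in clusters 5 or 7. Both conditions were read from the deposited per-cell table: hashtag class CD73pos and cluster number 5 or 7, which gave 87 cells in cluster 5 and 187 cells in cluster 7. They were set against 1190 cells that carried the CD25+ Treg progenitor (TRP) hashtag in the same clusters, and against 1045 CD73+ Treg cells of cluster 3. All cells came from 1 pool of thymocytes from 8 female mice aged 7 to 12 weeks. The mice carried TCliβ, a fixed transgenic T cell receptor (TCR) β chain, with TCRα+/-, so that only one α allele could give a receptor, and a Foxp3-GFP reporter. Every population, the compared ones included, was also sorted for surface Vα2, the protein encoded by the TRAV14 genes, which narrows the α repertoire. The 6 sorted populations were CD73+ Treg, CD73- Treg, Foxp3lo TRP, CD25+ TRP, CD4+ cells and CD4+CD8+ double-positive cells. The hashtag class written only as Treg was read as the CD73- Treg sort, a match that the labels do not state. Each population received its own hashtag before they were loaded together for 10x 5′ single-cell capture with libraries for gene expression, hashtags and TCR α chains.

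In the thymus, regulatory T cells (Treg cells) develop through CD25+ and Foxp3lo progenitors into Foxp3-expressing cells. The lineage choice depends on the TCR. With a fixed β chain, the α chain carries the variation, and its complementarity-determining region CDR3 is written across the join of a V and a J segment. Successive joins on one allele move from J segments near the V genes towards J segments near the constant region. CD73, an ectonucleotidase that makes adenosine, has been used in mouse thymus to set long-resident or returning Treg cells apart from newly made ones.

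The design gave 1 pool and 1 sort per population, so no comparison below has a replicate and none has a test. Shares carry exact Clopper-Pearson 95% intervals, which cover counting error only and not differences between mice or sorts. The gene expression matrix held 34190869 unique molecular identifiers (UMIs) over 14790 gene rows, and no barcode was listed more than once. Its rows carry no gene names, so Foxp3, Il2ra, Nt5e and the other markers of the sorted populations were not checked, and clusters are called by number only.

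The 3 CDR3 sequences most frequent in these cells were a larger share of them than of CD25+ TRP cells, with values by cluster below. No other CDR3 was more frequent than these 3 in the CD25+ TRP cells or in cluster 3 either. Their frequency is thus not particular to the members, and only the size of their shares differed. CAASAGYSNNRLTL and CAASADYSNNRLTL both joined TRAV14D-3-DV8 to TRAJ7 and differ at a single residue; they are called the TRAJ7 pair. The other, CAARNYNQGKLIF, used TRAJ23. The pair was picked as the 2 most frequent TRAJ7 CDR3 of all CD73+ Treg cells, the members and cluster 3 included. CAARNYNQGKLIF was picked as the next most frequent CDR3 of the members. Their larger shares in CD73+ cells are thus in part set by this choice and serve as a description. The forms below are the nucleotide sequences carried by most members with each CDR3, shown because the same amino acids were reached by several joins. Capitals mark bases that match neither the annotated end of the V gene nor the annotated start of the J segment, and the germline J segments follow for reference. Both germline segments are from the GENCODE M21 transcripts on GRCm38.
CAASADYSNNRLTL form 1: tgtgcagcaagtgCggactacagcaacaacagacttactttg
CAASADYSNNRLTL form 2: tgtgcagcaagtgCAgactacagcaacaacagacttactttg
CAASAGYSNNRLTL form 1: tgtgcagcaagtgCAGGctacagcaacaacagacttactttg
CAASAGYSNNRLTL form 2: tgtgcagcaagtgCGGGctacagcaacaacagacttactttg
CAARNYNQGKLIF form 1: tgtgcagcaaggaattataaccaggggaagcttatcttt
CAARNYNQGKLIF form 2: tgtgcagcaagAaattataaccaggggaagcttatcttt
Germline TRAJ7: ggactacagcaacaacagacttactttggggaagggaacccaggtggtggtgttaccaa
Germline TRAJ23: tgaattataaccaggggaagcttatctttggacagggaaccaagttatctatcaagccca

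All of these segments are annotated on chromosome 14 of GRCm38, plus strand. TRAV14D-3-DV8 spans chr14:53078452-53079045, TRAV14-2 spans chr14:53640701-53641225 and TRAV14N-3 spans chr14:53370077-53370575. TRAJ23 lies at chr14:54196081-54196140 and TRAJ7 at chr14:54211470-54211528, on the side nearest the constant gene TRAC (chr14:54220521-54224206).

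CD73+ Treg cells made up a minority of clusters 5 and 7, in which most cells were CD25+ TRP. They were 15.5% of the 1765 cells of both clusters (95% interval 13.9 to 17.3), 9.23% of cluster 5 and 22.7% of cluster 7. These cells were 11.4% of the 2401 CD73+ Treg cells in the data set (10.2 to 12.8), whereas cluster 3 held 43.5% of them. Within the pair of clusters the CD73+ cells lay more in cluster 7 than the CD25+ cells did. Cluster 7 held 68.2% of the CD73+ cells (62.4 to 73.7) and 45.3% of the CD25+ TRP cells (42.4 to 48.2). For CD73- Treg cells the share in cluster 7 was 57.3% (43 of 75), and for Foxp3lo TRP cells it was 22.6% (31 of 137).

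The members were about as deeply sequenced as the CD25+ TRP cells and deeper than the CD73+ Treg cells of cluster 3. Their median was 4069.5 UMIs per cell (quartiles 2965 and 5709.75), against 3776.5 in CD25+ TRP cells (3032.25 and 4901) and 2730 in cluster 3 (2186 and 3473). The difference followed the cluster: medians in cluster 7 were 4429 UMIs in CD73+ cells and 4398 in CD25+ cells, and medians in cluster 5 were 3179 and 3379. Thinned to 2000 UMIs per cell, the median number of genes was 963 in the members, 1008 in CD25+ TRP cells and 929 in cluster 3. That thinning left out 8, 37 and 182 shallower cells of these 3 groups in the same order. Unthinned medians were 1574, 1586 and 1167 genes.

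A productive α chain was recovered in fewer of the members than of CD25+ TRP cells and in more than of cluster 3. The shares were 60.6% (166 of 274, 54.5 to 66.4) in the members, 72.2% (859 of 1190, 69.5 to 74.7) in CD25+ TRP cells and 37.0% (387 of 1045, 34.1 to 40.04) in cluster 3. Recovery increased with UMIs in each group. Between 4000 and 6000 UMIs it was 63.3%, 75.6% and 47.5%, and at 6000 UMIs or more it was 74.6%, 86.0% and 73.7%, each in the order members, CD25+ TRP, cluster 3. Weighted to the members' UMI bins, recovery was 73.4% in CD25+ TRP cells and 48.9% in cluster 3, and the order of the groups was the same. Recovered α contigs had a median of 26 UMIs in the members, 25 in CD25+ TRP cells and 18 in cluster 3. Cells with 2 or more productive α chains were 3.01% of the members with an α chain (5 of 166), 5.70% of such CD25+ TRP cells (49 of 859) and 4.91% of such cluster 3 cells (19 of 387). The intervals of these 3 shares overlapped.

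**Figure D1:**
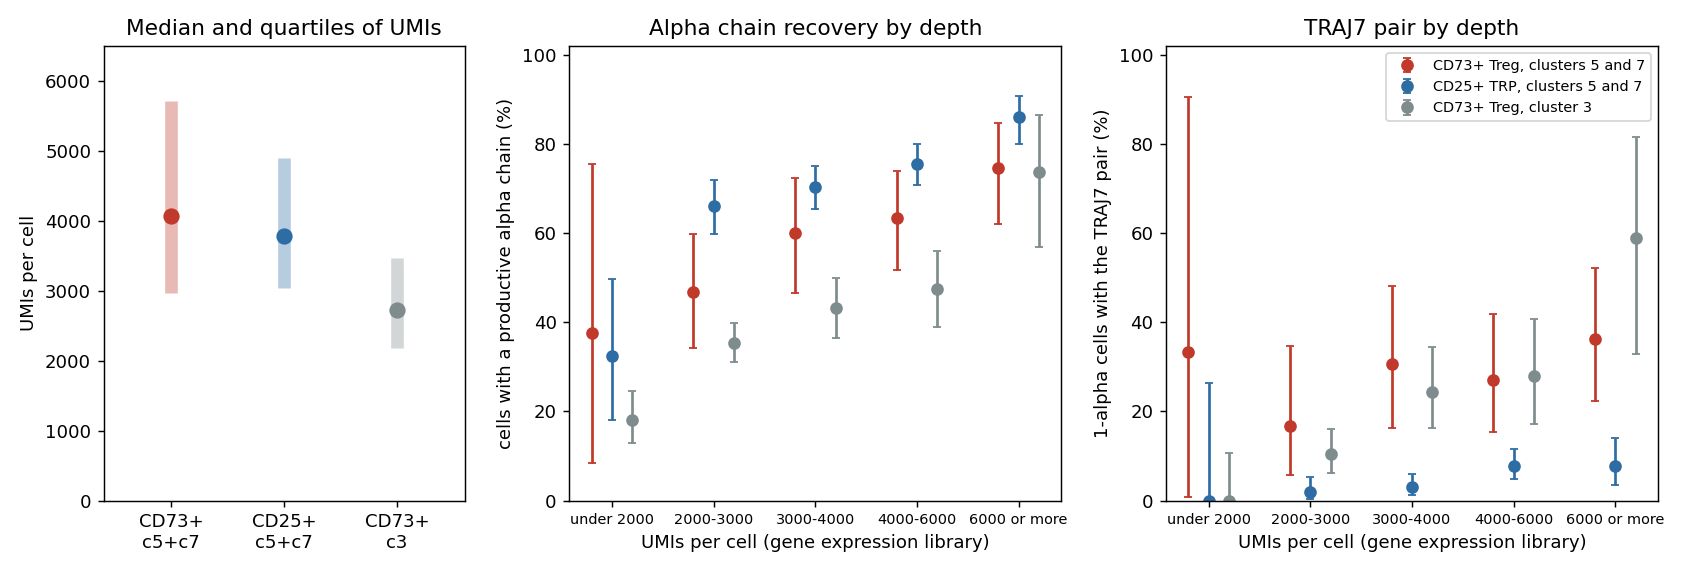
UMIs per cell (left, point at the median, bar from lower to upper quartile), share of cells with a productive α chain by UMI bin (middle) and share of 1-α cells (cells with exactly 1 productive α chain) with the TRAJ7 pair by UMI bin (right), with exact 95% intervals. Recovery lies below CD25+ TRP cells and above cluster 3 in the bins from 2000 to 6000 UMIs, and the TRAJ7 pair is more frequent in deeper cells of cluster 3, reaching 58.8% at 6000 UMIs or more.

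The results that follow use cells with exactly 1 productive α chain: 161 members (47 in cluster 5 and 114 in cluster 7), 810 CD25+ TRP cells and 368 cells of cluster 3. The TRAJ7 pair was carried by 46 of the 161 members, or 28.6% (21.7 to 36.2). It was carried by 40 of 810 CD25+ TRP cells, or 4.94% (3.55 to 6.66), and by 67 of 368 cluster 3 cells, or 18.2% (14.4 to 22.5). The members' interval lay above that of the CD25+ TRP cells in the same clusters and overlapped that of cluster 3. CAASAGYSNNRLTL alone was in 25 members (15.5%), 18 CD25+ TRP cells (2.22%) and 36 cluster 3 cells (9.78%). CAASADYSNNRLTL was in 21 members (13.04%), 22 CD25+ TRP cells (2.72%) and 31 cluster 3 cells (8.42%). Both chains were in a larger share of the members than of CD25+ TRP cells, which their choice from CD73+ cells in part sets. For each chain the members' interval overlapped that of cluster 3.

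The distance from CD25+ TRP cells was as large at matched cluster mix and at matched depth. CD25+ TRP cells weighted to the members' split between clusters 5 and 7 carried the pair at 5.39%, and weighted to the members' UMI bins at 5.43%. The distance from cluster 3 did move with depth. At 4000 UMIs or more the pair was in 31.5% of the members (29 of 92, 22.2 to 42.0) and in 34.6% of cluster 3 cells (27 of 78, 24.2 to 46.2). Below 4000 UMIs it was in 24.6% of the members (17 of 69, 15.1 to 36.5) and in 13.8% of cluster 3 cells (40 of 290, 10.0 to 18.3). Weighted to the members' UMI bins, cluster 3 carried the pair at 31.8%, close to the members' 28.6%. This weighted value has no interval. Its bin of 6000 UMIs or more held 44 of the members but only 17 cluster 3 cells, 10 of them with the pair (58.8%, 32.9 to 81.6). In CD25+ TRP cells the pair was likewise more frequent at 4000 UMIs or more (7.67%) than below (2.55%).

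Within the members the pair was concentrated in cluster 7. It was in 40 of 114 members of cluster 7, or 35.1% (26.4 to 44.6), and in 6 of 47 members of cluster 5, or 12.8% (4.83 to 25.7), and these intervals did not overlap. CD25+ TRP cells showed no step beyond their intervals, with 5.88% in cluster 7 (21 of 357, 3.68 to 8.85) and 4.19% in cluster 5 (19 of 453, 2.54 to 6.47). Against CD25+ TRP cells of the same cluster, the members' interval lay apart in cluster 7 and overlapped in cluster 5. Cluster 7 was the deeper cluster, and the part of depth in this concentration was not tested. The cluster 7 members below 4000 UMIs carried the pair at 32.4% (11 of 34), against 17.1% of cluster 5 members of that depth (6 of 35), with intervals that overlapped. At 4000 UMIs or more the pair was in 36.3% of cluster 7 members (29 of 80) and in 0 of 12 cluster 5 members, where 3 cells, the limit used for a count of 0, would be 25%. The pair was in a smaller share of most other cells of clusters 5 and 7 than of the members. It was in 4 of 41 CD73- Treg cells (9.76%, 2.72 to 23.1), in 2 of 74 Foxp3lo TRP cells (2.70%, 0.329 to 9.42) and in 0 of 55 CD4+ cells, where 3 cells would be 5.45%. The CD73- Treg interval overlapped that of the members, and 1 of 5 double-positive cells carried the pair. In CD73+ Treg cells of cluster 0 the pair was in 4 of 107 cells (3.74%, 1.03 to 9.29) and in those of cluster 9 in 1 of 234 (0.427%, 0.0108 to 2.36). In CD73+ Treg cells of cluster 11 it was in 4 of 23 (17.4%, 4.95 to 38.8), in those of cluster 12 in 7 of 52 (13.5%, 5.59 to 25.8) and in those of cluster 1 in 2 of 21 (9.52%, 1.17 to 30.4). These last 3 intervals overlapped that of the members. It was in 1 of 46 such cells of cluster 10 (2.17%), and in 0 of 16 of cluster 2 and 0 of 28 of cluster 14, where 3 cells would be 18.8% and 10.7%.

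**Figure D2:**
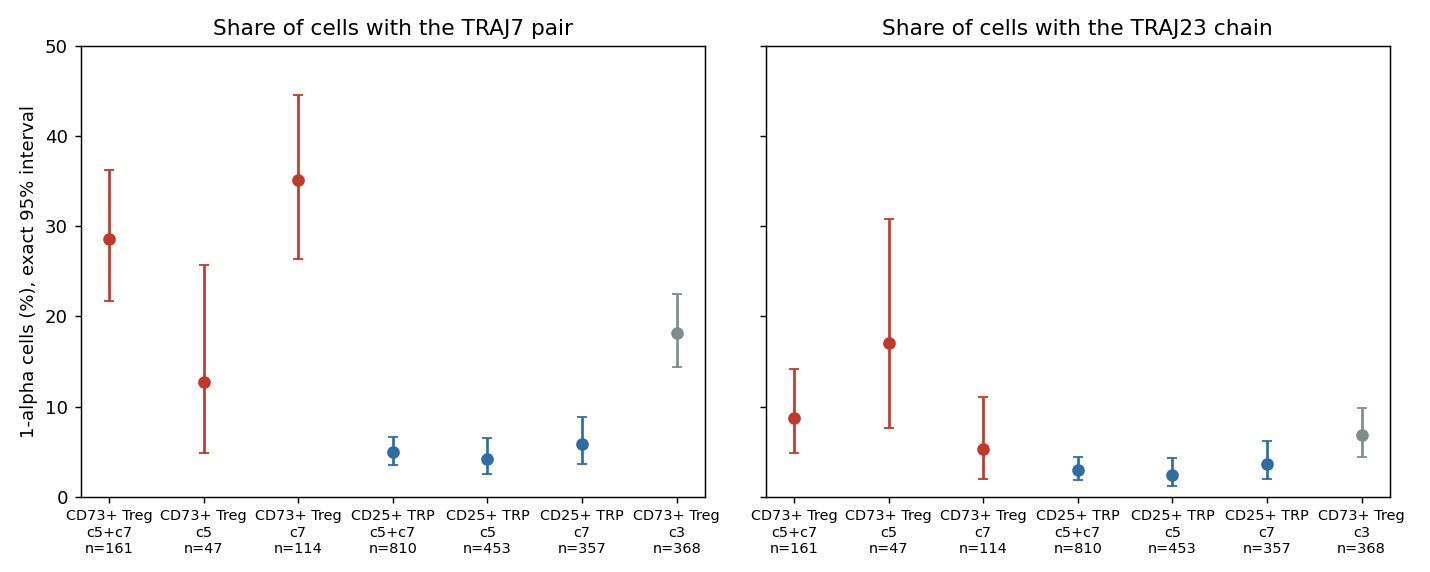
Share of 1-α cells that carried the TRAJ7 pair (left) and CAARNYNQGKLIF, labelled the TRAJ23 chain (right), for CD73+ Treg cells of clusters 5 and 7 together and apart, the matching CD25+ TRP cells and CD73+ Treg cells of cluster 3; bars are exact 95% intervals and n is the number of cells. The pair peaks at 35.1% in the members of cluster 7, and the TRAJ23 chain at 17.0% in those of cluster 5.

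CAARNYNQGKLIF, picked for its frequency in the members, also had its largest share of the compared groups there, and ran in the other order of clusters. It was in 14 of 161 members, or 8.70% (4.84 to 14.2), in 24 CD25+ TRP cells, or 2.96% (1.91 to 4.38), and in 25 cluster 3 cells, or 6.79% (4.44 to 9.87). In cluster 5 it was in 8 of 47 members, or 17.0% (7.65 to 30.8), and in cluster 7 in 6 of 114, or 5.26% (1.96 to 11.1). These intervals overlapped. Set against CD25+ TRP cells of the same cluster, the members' interval lay apart in cluster 5 (11 of 453 CD25+ cells, 2.43%, 1.22 to 4.30) and overlapped in cluster 7 (13 of 357, 3.64%, 1.95 to 6.15). Other cells of clusters 5 and 7 carried this chain at shares that overlapped the members', with 4 of 55 CD4+ cells (7.27%, 2.02 to 17.6), 5 of 74 Foxp3lo TRP cells (6.76%, 2.23 to 15.1) and 1 of 41 CD73- Treg cells (2.44%, 0.0617 to 12.9). With the pair, the 3 CDR3 made up 37.3% of the members (60 of 161, 29.8 to 45.2), 7.90% of CD25+ TRP cells (64 of 810, 6.14 to 9.98) and 25% of cluster 3 cells (92 of 368, 20.7 to 29.8). The members with the pair had a median of 4477.5 UMIs and those with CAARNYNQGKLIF 3250.5 UMIs. Another CDR3, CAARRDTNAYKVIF on TRAJ30, was in 3 members, 3 CD25+ TRP cells and 2 cluster 3 cells, and was the only CDR3 beside these in at least 3 members.

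Each frequent CDR3 was written by several nucleotide joins among the members, so cells with the same CDR3 did not all share 1 joined sequence. The 25 members with CAASAGYSNNRLTL held 6 nucleotide forms, the 21 with CAASADYSNNRLTL held 4, and the 14 with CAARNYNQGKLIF held 4. The CD25+ TRP cells held 5, 4 and 5 forms of these CDR3, and cluster 3 held 7, 4 and 8. CAASADYSNNRLTL form 1, with a single unmatched base, was in 13 members, 10 CD25+ TRP cells and 17 cluster 3 cells. Form 1 of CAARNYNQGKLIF, in which every base matched the V or the J segment, was in 7 members, 18 CD25+ TRP cells and 16 cluster 3 cells, while its form 2 was in 5, 3 and 2. The forms of CAASAGYSNNRLTL needed 4 to 5 unmatched bases. Its form 1 was in 8 members, 6 CD25+ TRP cells and 13 cluster 3 cells, and its form 2 in 8, 7 and 8.

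All 14 members with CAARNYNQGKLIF were assigned TRAV14-2 (76.8 to 100%). CD25+ TRP cells with this CDR3 were assigned TRAV14-2 in 15 of 24 cells and TRAV14N-3 in 8 of 24 (33.3%, 15.6 to 55.3). In cluster 3 the counts were 19 and 2 of 25. Over whole populations, TRAV14N-3 was the V gene of this CDR3 in 5 of 51 CD73+ Treg cells, 14 of 25 Foxp3lo TRP cells, 18 of 38 CD25+ TRP cells and 15 of 18 CD4+ cells. The TRAV14 genes are close copies of each other, so the assignment of a single chain to one copy is uncertain.

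Of the 43 TRAJ segments seen in the data set, the members' share had an interval apart from that of CD25+ TRP cells at TRAJ7 alone, and apart from that of cluster 3 at no segment. TRAJ7 was used by 29.2% of the members (47 of 161, 22.3 to 36.9), 6.67% of CD25+ TRP cells and 18.8% of cluster 3 cells. With each different CDR3 counted once, TRAJ7 made up 3.06% of the members' CDR3, 2.21% of those of CD25+ TRP cells and 1.79% of those of cluster 3. Without the 3 frequent CDR3, TRAJ7 was in 0.990%, 1.88% and 0.725% of cells. The members' TRAJ7 excess was therefore carried by the pair. TRAJ23, the next most used segment, was in 12.4% of the members, 11.4% of CD25+ TRP cells and 10.9% of cluster 3 cells. TRAJ13 was in 6.21%, 8.02% and 4.89%, TRAJ22 in 5.59%, 5.56% and 8.97%, TRAJ15 in 4.97%, 5.93% and 5.71%, and TRAJ26 in 4.97%, 8.52% and 5.98% of the groups in that order. Segments numbered 40 or higher, which lie nearest the V genes, were in 10.6% of the members (6.27 to 16.4), 14.6% of CD25+ TRP cells and 12.8% of cluster 3 cells. Without the 3 frequent CDR3 these shares were 16.8%, 15.8% and 17.0%. The members used 29 of the 43 segments, CD25+ TRP cells 41 and cluster 3 cells 36, in samples of 161, 810 and 368 cells.

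**Figure D3:**
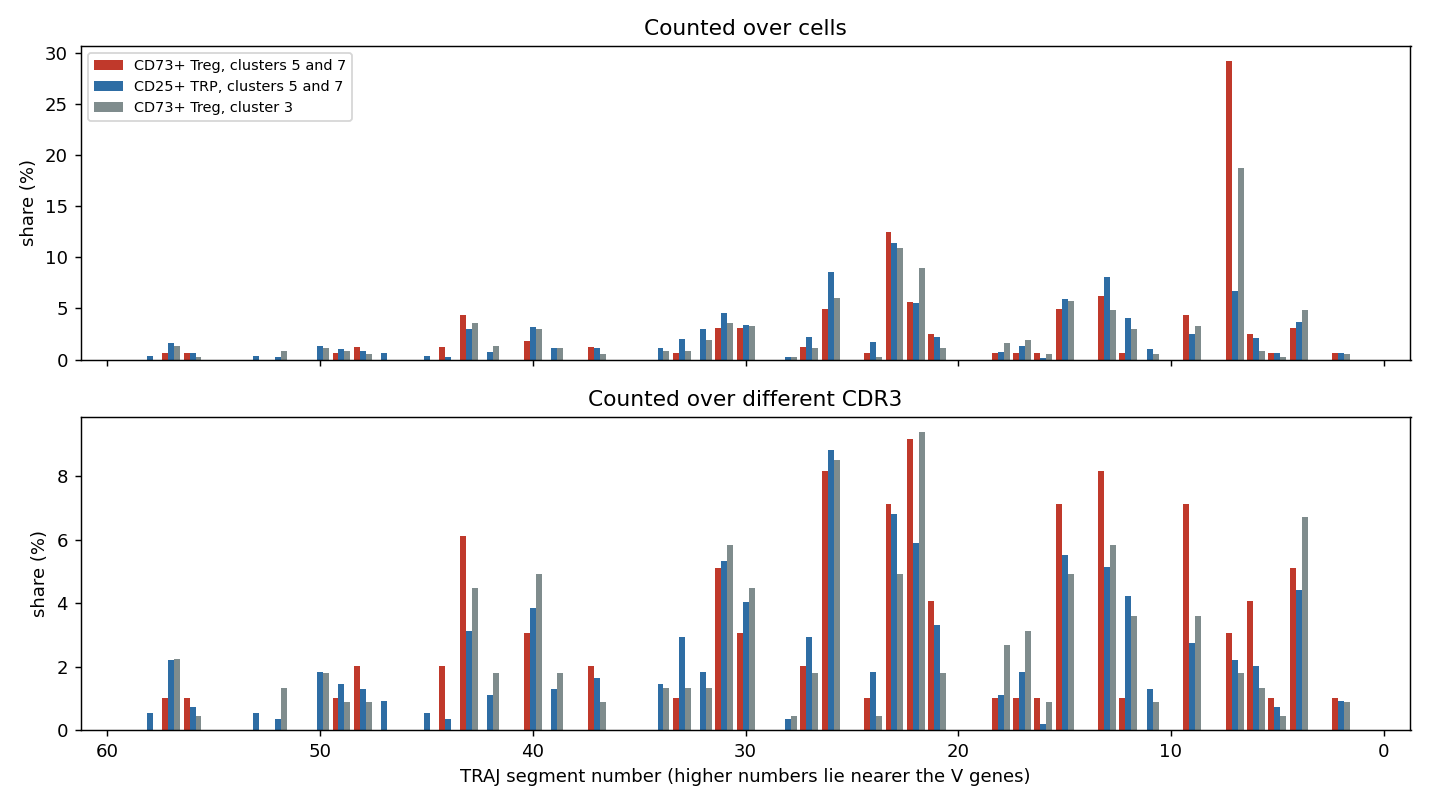
Share of each TRAJ segment in CD73+ Treg cells of clusters 5 and 7, CD25+ TRP cells of the same clusters and CD73+ Treg cells of cluster 3, counted over 1-α cells (top) and over different CDR3 (bottom); the x axis is the segment number, which falls towards the constant region. TRAJ7 reaches 29.2% of the members over cells and 3.06% over different CDR3.

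V gene use outside the frequent chains showed a further difference, chosen after its values were seen. Nearly all chains were from the TRAV14 family, with 159 of 161 members, 809 of 810 CD25+ TRP cells and 366 of 368 cluster 3 cells. Without the 3 frequent CDR3, TRAV14D-3-DV8 was assigned to 16.8% of the members (17 of 101, 10.1 to 25.6), 29.1% of CD25+ TRP cells (217 of 746, 25.9 to 32.5) and 19.2% of cluster 3 cells (53 of 276, 14.7 to 24.4). TRAV14N-3 was assigned to 19.8% of these members (20 of 101, 12.5 to 28.9), 8.85% of CD25+ TRP cells (6.91 to 11.1) and 12.7% of cluster 3 cells (8.99 to 17.2). In both genes the interval of the members lay apart from that of CD25+ TRP cells and overlapped that of cluster 3. Over all chains the share of TRAV14D-3-DV8 was 39.1% in the members, 31.7% in CD25+ TRP cells and 32.3% in cluster 3.

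The overall make-up of the CDR3 was alike in the groups. Mean length was 13.25 ± 1.12 residues in the members, 13.25 ± 1.19 in CD25+ TRP cells and 13.35 ± 1.17 in cluster 3 (SD over cells). Mean net charge was 0.87, 0.84 and 0.91 in the same order, and the median number of unmatched bases at the join was 3 in each group. Counting each different CDR3 once, mean length was 12.99 residues in the members, 13.24 in CD25+ TRP cells and 13.21 in cluster 3.

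The members' repertoire was less diverse than that of CD25+ TRP cells at equal cell numbers, but not once the 3 frequent CDR3 were left out. The 161 members held 98 different CDR3, against 136 expected in 161 CD25+ TRP cells and 109 in 161 cluster 3 cells. Without the 3 CDR3, 101 members held 95 different CDR3, against 93.2 in 101 CD25+ TRP cells and 90.4 in 101 cluster 3 cells. Of the 98 different CDR3, 90 were in 1 member only and 8 in 2 or more.

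Counted over different CDR3, 17 of the 98 were also found in both compared groups, 13 in CD25+ TRP cells only and 3 in cluster 3 only. The other 65 were in neither, and 41 of them were in no other 1-α cell of the 6982 in the data set. By cells, 57.1% of the members (92 of 161) had a CDR3 also found in CD25+ TRP cells and 50.9% (82 of 161) one also found in cluster 3. CD25+ TRP was the larger group, and drawn down to 368 cells it was expected to contain the CDR3 of 51.2% of the members, about the same as cluster 3. With a clonotype defined by CDR3 nucleotides and both segments, the expected shares at 368 cells were 34.3% in CD25+ TRP cells and 41.6% in cluster 3. This definition needs the same V gene, and the assignment to one TRAV14 copy is uncertain. By CDR3 amino acids without the 3 frequent CDR3, the expected shares at 276 cells were 19.8% and 21.8%.

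Sharing counts whether a CDR3 is present, whereas Morisita's index also weighs how frequent it is, with 0 for no overlap and about 1 for equal frequencies. Here it was corrected for sample size and can pass 1. Between the members and CD25+ TRP cells of the same clusters the index was 0.406, and between the members and cluster 3 it was 0.947. The index between cluster 3 and CD25+ TRP cells was 0.590. By frequency of CDR3, the members thus lay nearer to CD73+ Treg cells of another cluster than to CD25+ cells of their own. With all CDR3 counted, this held in each cluster. Members of cluster 5 had an index of 0.886 with cluster 3 and 0.393 with CD25+ cells of cluster 5. Members of cluster 7 had 0.865 with cluster 3 and 0.395 with CD25+ cells of cluster 7. Without the TRAJ7 pair the members' indices were 0.553 with CD25+ TRP cells and 0.958 with cluster 3. Without all 3 frequent CDR3 they were 0.780 and 0.805. By cluster, without the pair, members of cluster 5 had 0.304 with CD25+ cells of their cluster and 0.798 with cluster 3. Members of cluster 7 then had 0.882 and 1.04. Without all 3 CDR3, members of cluster 5 had 0.777 and 0.971. Members of cluster 7 then had 0.834 and 0.811, so the order was reversed there. With both clusters together, little of the contrast between the groups remained without the 3 CDR3. They were picked for their frequency in CD73+ cells, so leaving them out was set to reduce this contrast. The index of the remaining 101 members was drawn from the few CDR3 seen more than once.

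Over all other cells of each sorted population, the members' index was 0.668 with CD73+ Treg, 0.343 with CD73- Treg, 0.179 with Foxp3lo TRP, 0.266 with CD25+ TRP, 0.0586 with CD4+ and 0.0262 with double-positive cells. Without the 3 frequent CDR3 these indices were 1.02, 0.685, 0.357, 0.646, 0.295 and 0.406 in the same order, so that double-positive cells then stood above Foxp3lo TRP and CD4+ cells. At 223 cells drawn from each population, the expected share of members whose CDR3 was found was 48.9% in CD73+ Treg, 47.2% in CD73- Treg, 31.6% in Foxp3lo TRP, 45.8% in CD25+ TRP, 13.8% in CD4+ and 12.5% in double-positive cells. Without the 3 frequent CDR3 these shares were 20.4%, 15.8% (at 208 cells), 11.2%, 15.8%, 9.51% and 6.38%. The order of the populations was similar, and the distances between them were smaller. Members of clusters 5 and 7 had an index of 0.683 with each other, and of 1.52 without the 3 CDR3. The latter rests on very few repeated CDR3, with 33 different CDR3 in 33 members of cluster 5 and 65 in 68 of cluster 7. Without the 3 CDR3, 3 of 33 members of cluster 5 had a CDR3 found in cluster 7 and 3 of 68 members of cluster 7 one found in cluster 5.

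**Figure D4:**
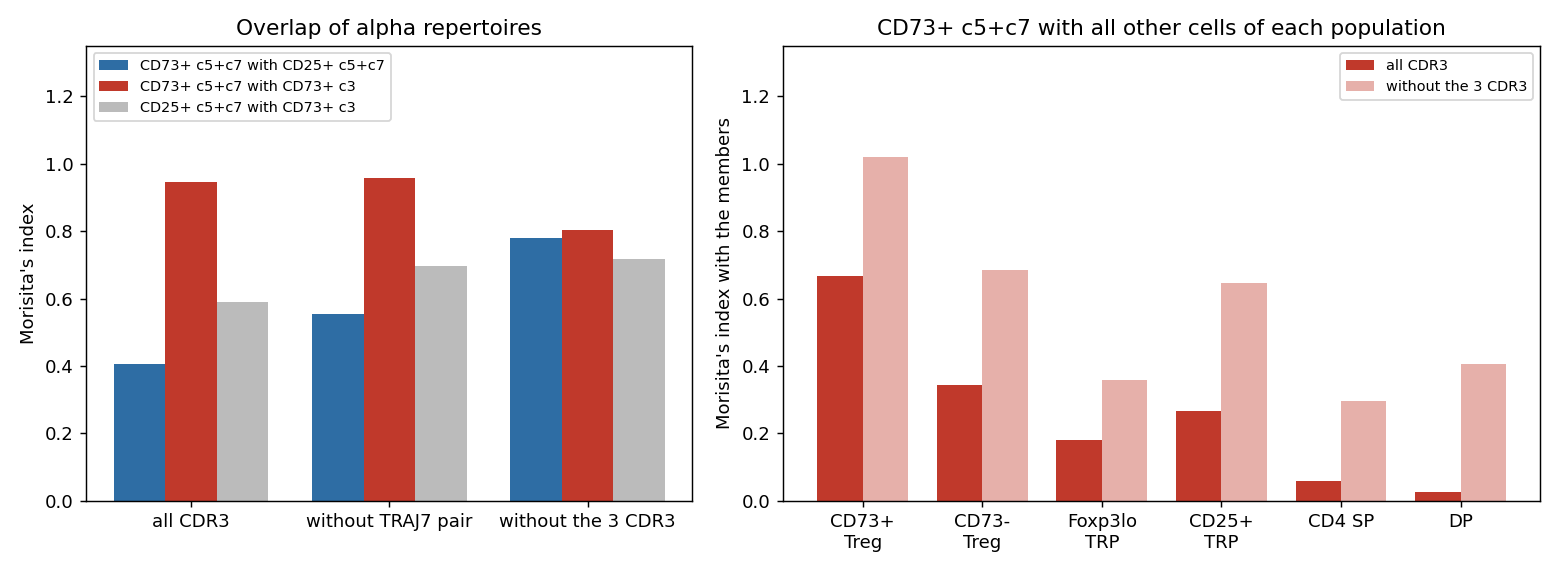
Morisita's index of CDR3 α repertoires: left, between the 3 groups with all CDR3, without the TRAJ7 pair and without the 3 frequent CDR3; right, between CD73+ Treg cells of clusters 5 and 7 and all other cells of each sorted population. The index of the members is 0.947 with cluster 3 and 0.406 with CD25+ TRP cells, and 0.805 and 0.780 without the 3 CDR3; on the right, the index with double-positive cells is 0.0262 with all CDR3 and 0.406 without the 3.

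Summed over the cells of both clusters, the members' gene expression lay between the compared groups and nearer to CD25+ TRP cells of the same clusters. Counts were summed per group (1259272 UMIs in the members, 5059387 in CD25+ TRP cells and 3146352 in cluster 3), scaled to CPM, the counts of a row relative to all counts of its group, and compared as log2 ratios of CPM + 1 over gene rows at 50 CPM or more in either group. The root mean square (RMS) of the log2 ratios was 0.54 for members over CD25+ TRP cells (3066 rows), of which counting error would give 0.15, and 0.73 for members over cluster 3 (3042 rows, 0.17 from counting). It was 0.90 for cluster 3 over CD25+ TRP cells. Cluster 7 gave 942626 of the members' UMIs and 2666086 of those of CD25+ TRP cells. With CD25+ TRP cells at the members' cluster mix, the RMS for members over CD25+ TRP cells was 0.56. Rows past a 2-fold difference in either direction were 4.73% for members over CD25+ TRP cells (87 higher and 58 lower), 13.8% for members over cluster 3 (296 higher and 125 lower) and 19.2% for cluster 3 over CD25+ TRP cells. Of the 3254 rows at 50 CPM in any group, 62.3% were nearer in the members to CD25+ TRP cells than to cluster 3. Clusters were drawn from the expression of these same cells, so nearness to cells of the same clusters is in part set by the choice of cells.

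The 2 clusters differed in this. In cluster 5 the RMS was 0.57 for members over CD25+ TRP cells of that cluster and 0.52 for members over cluster 3, and with the counting part removed 0.49 and 0.43. By these values, which have no interval, the 87 members of cluster 5 were slightly nearer to cluster 3 than to CD25+ cells of their own cluster. In cluster 7 the RMS was 0.63 over CD25+ TRP cells of that cluster and 0.89 over cluster 3, or 0.60 and 0.87 with the counting part removed. The direction of the rows past 2-fold over cluster 3 also differed between the clusters. Of 2943 rows, 49 were higher and 84 lower in members of cluster 5. Of 3096 rows, 451 were higher and 226 lower in members of cluster 7. Counting error would give an RMS of 0.29 in the first comparison and 0.19 in the second. Rows past 2-fold between members and CD25+ TRP cells were 6.69% within cluster 5 and 6.12% within cluster 7. In cluster 5, 100 of these rows were higher and 105 lower in members, and in cluster 7, 126 were higher and 60 lower. Counting error between members and CD25+ TRP cells would give an RMS of 0.30 in cluster 5 and 0.18 in cluster 7, so these shares are not directly comparable. Between members of cluster 7 and members of cluster 5 the RMS was 0.89, and between CD25+ TRP cells of these clusters it was 0.83. These values between clusters were larger than those between the populations within either cluster. Clusters were drawn from this same expression, so this order is in part set by how the cells were grouped.

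The rows that separated cluster 3 from CD25+ TRP cells were followed in the members as a description, since the ratios share those groups. Here CD25+ TRP cells of clusters 5 and 7 were pooled, also where members of a single cluster are given. Of these, 236 rows were at least 2-fold higher in cluster 3. Their median log2 ratio was 0.64 for members over CD25+ TRP cells and -0.85 for members over cluster 3. In members of cluster 5 these medians were 0.95 and -0.61, and in members of cluster 7 they were 0.55 and -0.97. In CD73- Treg cells of clusters 5 and 7 they were 0.66 and -0.86, and in Foxp3lo TRP cells of these clusters 0.83 and -0.69. The place between the compared groups was thus shared by other sorted populations of these clusters. Another 389 rows were at least 2-fold lower in cluster 3. Their medians were -0.17 for members over CD25+ TRP cells and 1.18 for members over cluster 3. CD73- Treg cells of clusters 5 and 7 stood at -0.34 and 1.00, and Foxp3lo TRP cells of these clusters at -0.59 and 0.79. For these rows members of cluster 5 stood at -1.04 and 0.35, near cluster 3. Members of cluster 7 stood at 0.02 and 1.37, near the pooled CD25+ TRP cells. With that pooled reference, the difference between clusters 5 and 7 is part of these values, and its size in them was not tested. The genes of these rows cannot be named here.

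**Figure D5:**
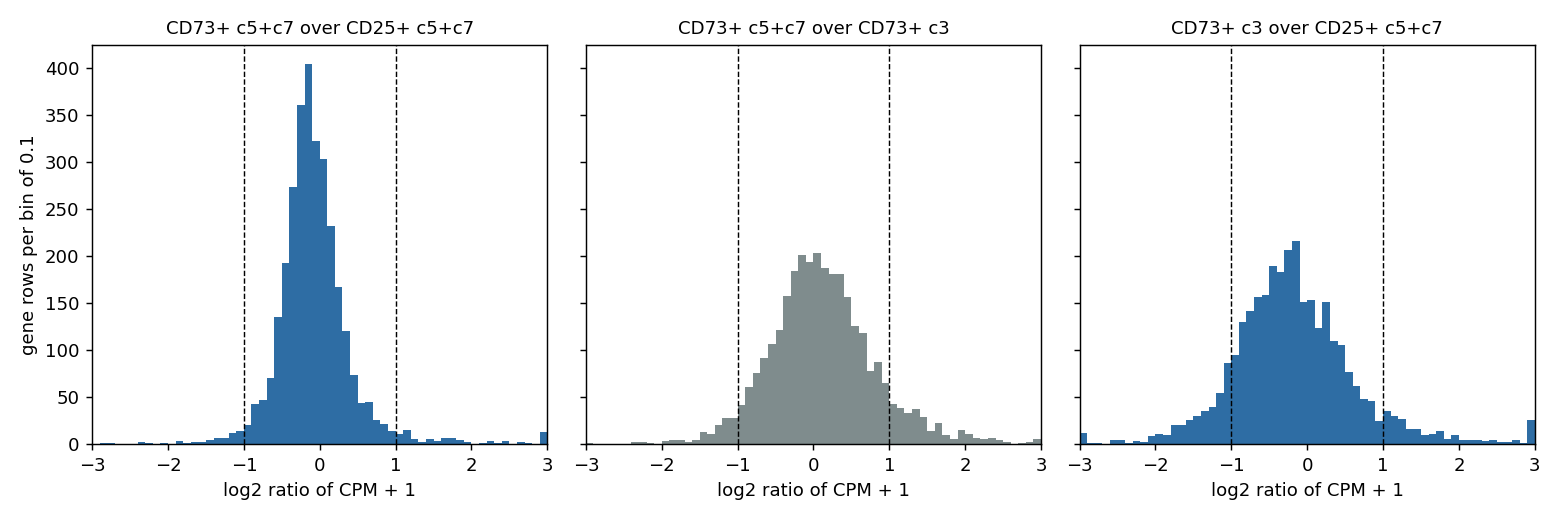
Number of gene rows by log2 ratio of CPM + 1 (bins of 0.1) for CD73+ Treg cells of clusters 5 and 7 over CD25+ TRP cells (left), over CD73+ Treg cells of cluster 3 (middle), and for cluster 3 over CD25+ TRP cells (right); dashed lines mark 2-fold and the end bins hold all more extreme rows. The spread is narrowest for members over CD25+ TRP cells, with 4.73% of rows past 2-fold.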

How the data were processed

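Gene expression, hashtag and TCR libraries came from 1 pool. Per the submitters' processing notes the authors used Cell Ranger 3.1.0 and Seurat 3.1.1 with mm10 (GRCm38), and deposited whole-number UMI counts per gene row and cell, natural log normalized values, hashtag classes, clusters and a contig table with UMI and read counts. The natural log values equalled ln(1 + 10000 × count / cell total) on the deposited counts to within 6.2e-15. Here the counts were used, and every listed cell was kept with no doublet caller run. Repertoire values used cells with exactly 1 productive α contig. Equal-number sharing and diversity were exact hypergeometric expectations, and the functions were tested on simulated data. CDR3 were named when found in at least 3 members or among the 3 most frequent of a compared group. TRAJ segments were named when among the 5 most used by the members. Members, lists and compared groups were chosen with earlier results of these data known. Python 3.11.15, numpy 2.4.6, scipy 1.17.1, pandas 2.3.3 and, for an alternative scaling only, edgeR 4.0.16 in R 4.3.3 were used. α recovery was incomplete, and the depth per group is given with the results.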

Additional observations from a re-analysis of the deposited data

Results flagged for a closer look

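Other contigs of the members fell outside the comparisons. Non-productive α contigs were listed in 8 cells of the members (2.92%, 95% interval 1.27 to 5.67), in 30 CD25+ TRP cells (2.52%) and in 11 cluster 3 cells (1.05%). Productive TRBV19 contigs were 21 of the members' 22 productive β contigs, 118 of 123 in CD25+ TRP cells and 65 of 67 in cluster 3, in a library enriched for α chains.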

How the results depend on the processing

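No paired analysis was possible because all cells came from 1 pool with no replicate numbers, and for the same reason no replicate could be left out. Of 160 values under alternatives, 122 stayed within the main value's 95% interval or, where it had none, within 20% of it. In cluster 5 alone the members had the TRAJ7 pair in 12.8%, TRAJ7 in 14.9%, a mean CDR3 length of 13.04 and sharing of 42.9% with CD25+ TRP cells and 42.6% with cluster 3. Median UMIs of members and CD25+ TRP cells were 3179 and 3379 in cluster 5 alone, and 4429 and 4398 in cluster 7 alone. The expression RMS of members over cluster 3 was 0.52 with cluster 5 alone and 0.89 with cluster 7 alone. With clonotypes of CDR3 nucleotides with V and J, sharing was 34.3% with CD25+ TRP cells and 41.6% with cluster 3. Without the TRAJ7 pair it was 30.1% and 31.3%, the Morisita index with CD25+ TRP cells was 0.553, and 40 members held 35.3 different CDR3, against 27.7 with it. With each different CDR3 once, TRAJ7 was in 3.06% of members', 2.21% of CD25+ TRP and 1.79% of cluster 3 CDR3. Segments from TRAJ40 then made up 19.0% of CD25+ TRP and 18.8% of cluster 3 CDR3, and mean length was 12.99 in members and 13.21 in cluster 3. Among cells with an α chain, median UMIs were 4466.5 in members, 3964 in CD25+ TRP cells and 2984 in cluster 3. Exactly 1 productive α chain was found in 68.1% of CD25+ TRP cells, and in cluster 3 cells with at least 2000 UMIs recovery was 41.0%. Alternatives chosen after seeing the data left out the 3 frequent CDR3 or kept cells of 4000 UMIs or more. Without the 3 CDR3, mean length was 12.95 in members and 13.22 in cluster 3, 40 members held 39.0 different CDR3, sharing was 19.8% with CD25+ TRP cells and 21.8% with cluster 3, and the Morisita index with CD25+ TRP cells was 0.780. At 4000 UMIs or more the pair was in 7.67% of CD25+ TRP and 34.6% of cluster 3 cells, and the Morisita index was 0.518 with CD25+ TRP cells and 1.04 with cluster 3. Of the rows past 2-fold between members and CD25+ TRP cells, 60% were higher in members, against 69.7% with TMM scaling and 48.5% with cells thinned to 1000 UMIs. The causes of these shifts were not tested. With 161 members, shares of a few percent could not be told apart.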
